A study of Homo sapiens with 6 samples.

Results

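Insulin-like growth factor (IGF) binding proteins and the secreted proteins that control their cleavage were followed in UE7T-9 SHC4 cells and UE7T-9 Cont cells. UE7T-9 is an immortalized line of human bone marrow mesenchymal stem cells. The genes were taken by name, with earlier results of these data known, as 6 binding proteins (IGFBP2 to IGFBP7), 2 pappalysins (PAPPA and PAPPA2) and 2 stanniocalcins (STC1 and STC2). They are 10 of the 28181 genes in the files. RNA was sequenced from 3 libraries of UE7T-9 SHC4, labelled SHC4-OE, in which SHC4 was overexpressed after lentiviral infection, and from 3 libraries of UE7T-9 Cont, labelled Nontarget with genotype WT. The study's methods describe a CMV-driven puromycin vector for both groups, holding GFP in the control. The series describes clones, and how many clones or infections stand behind the 3 biological replicates of a group was not given, so p-values measure the spread between these libraries only. The study's methods describe puromycin selection of the infected cells, and the labels name no other treatment.

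IGF binding proteins hold IGF1 and IGF2 in the extracellular fluid, and most of them keep the ligand from the IGF1 receptor until they are cut. Pappalysins are secreted metalloproteinases that free the ligand. PAPPA cuts IGFBP4 and IGFBP5, and PAPPA2 cuts IGFBP3 and IGFBP5. Stanniocalcins bind pappalysins and block this cleavage. Marrow stromal cells secrete several of these proteins, and the IGF stored in bone acts on cells of the osteoblast lineage.

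The values are normalized counts, which are the reads of a gene divided by 1 size factor per library. The recovered depth was 18144993 to 27721397 reads per library. SHC4, the targeted gene, lay between 56.5 and 157 in UE7T-9 Cont and between 119166 and 155006 in UE7T-9 SHC4. The stromal markers THY1, NT5E, ENG, PDGFRB, COL1A1, COL1A2, COL3A1, VIM, LUM and DCN were all present, with means over the 6 libraries of 4064 or more. The 9 markers of blood, endothelial and epithelial cells that were read had means of 71.3 or less. The sum of these 9 was 223 to 300.0 in UE7T-9 Cont, against 165 to 182 for UE7T-9 SHC4. UE7T-9 Cont replicate 1 stood apart from its group. Its Pearson's correlation across genes was 0.975 with UE7T-9 SHC4 replicate 1, against 0.967 and 0.962 with the other UE7T-9 Cont libraries. Values without it are given with the results for the members and the called genes of the pathway lists. That library was picked out from these same data, so the values without it are no independent check.

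The binding proteins IGFBP5, IGFBP3 and IGFBP6 and the pappalysin inhibitor STC2 had their 3 UE7T-9 SHC4 values above every UE7T-9 Cont value. Across all genes tested, 9.13% were apart in this way with UE7T-9 SHC4 higher, against 4 of the 10 members. The groups overlapped for the other 6 members, and no member was apart with UE7T-9 SHC4 lower, as 10.2% of all genes were. The test was limma on log2(normalized count + 1) over the 23040 genes that averaged 1 or more, with calls at an adjusted p (Benjamini-Hochberg) below 0.05. It called 0.0651% of genes and 0 of the 10 members, although 5 of them were below 0.05 before adjustment, as 14.4% of all genes were. With the recovered reads, DESeq2 called 4.14% of genes (2.06% of genes as higher) and 4 of the 10 members, IGFBP3, IGFBP5, IGFBP6 and STC2, all as higher. The edgeR quasi-likelihood test called 0 members, with 4 at an unadjusted p below 0.05, as were 17.6% of the genes it tested. The median limma log2 fold change was 0.44 over the members and -0.00395 over all genes tested, and 0.56 and -0.00924 without UE7T-9 Cont replicate 1. The genes tested by limma averaged 1 or more, whereas every member averaged 80.5 or more, and shares among genes of like level were not computed.

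**Figure D1:**
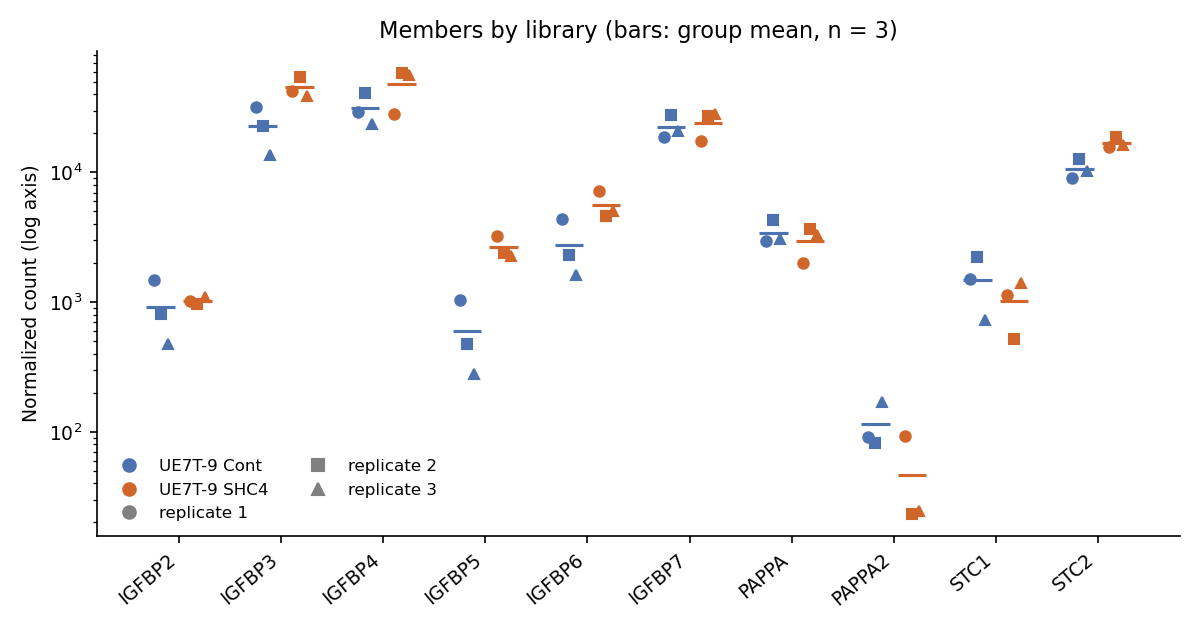
Normalized count (log axis) of the 10 members in the 6 libraries, with UE7T-9 Cont in blue, UE7T-9 SHC4 in orange, the marker shape giving the replicate number and a bar at each group mean (n = 3). The groups are apart for IGFBP3, IGFBP5, IGFBP6 and STC2 and overlap for the others.

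IGFBP5 is a binding protein that also attaches to extracellular matrix and is found in bone. In replicates 1, 2 and 3 of UE7T-9 Cont its normalized count was 1035, 477 and 281. The corresponding UE7T-9 SHC4 values were 3252, 2376 and 2288, and this order of replicates holds throughout. The lowest UE7T-9 SHC4 library was thus above the highest control, which was UE7T-9 Cont replicate 1. The means were 598 ± 391 and 2639 ± 533 (SD, n = 3 each), a ratio of 4.41. The limma log2 fold change was 2.33 (standard error 0.39, 95% interval 1.45 to 3.20, adjusted p = 0.0840), the largest in size among the members. DESeq2 gave 2.14 (standard error 0.38, DESeq2 adjusted p = 1.12e-05). Without UE7T-9 Cont replicate 1 the limma value was 2.83 (adjusted p = 0.00135). A limma fit with replicate as a block called IGFBP5 (adjusted p = 0.0202), and whether the numbers pair the libraries depended on the genes used to judge it. DESeq2 called IGFBP5 in 5 of 6 fits that left out a library, and not without UE7T-9 SHC4 replicate 1 (DESeq2 adjusted p = 0.0769). The antisense gene AC007563.2, not analysed here, shares 298 exonic bases with IGFBP5.

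IGFBP3 is the main carrier of IGF in serum and is secreted by many stromal cells. Its normalized count was 32056, 22726 and 13546 in UE7T-9 Cont, against 42503, 54695 and 38931 for UE7T-9 SHC4. Replicate 1 was again the highest control, and it lay closer to UE7T-9 SHC4 replicate 3 than to the other controls. The means were 22776 ± 9255 and 45376 ± 8265 (SD, n = 3 each), a ratio of 1.99. Limma gave a log2 fold change of 1.07 (standard error 0.32, 95% interval 0.36 to 1.78, adjusted p = 0.201), and the DESeq2 adjusted p was 0.0239. Without UE7T-9 Cont replicate 1 limma called the gene (log2 fold change 1.36, adjusted p = 0.0295). DESeq2 called it in 2 of 6 such fits, those without UE7T-9 Cont replicate 1 and without UE7T-9 SHC4 replicate 1.

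IGFBP6 prefers IGF2 over IGF1. Its normalized count was 4356, 2306 and 1615 in UE7T-9 Cont, against 7151, 4648 and 5049 for UE7T-9 SHC4. The margin between the groups was narrow, with replicate 1 the highest control and replicate 2 the lowest UE7T-9 SHC4 library. The means were 2759 ± 1426 and 5616 ± 1344 (SD, n = 3 each), a ratio of 2.04. The limma log2 fold change was 1.12 (standard error 0.32, 95% interval 0.40 to 1.85, adjusted p = 0.197). The DESeq2 adjusted p of 0.04997 lay just below the threshold, and DESeq2 kept this call in 1 of 6 fits that each left out a library. That fit was the one without UE7T-9 Cont replicate 1, where limma also called IGFBP6 (log2 fold change 1.51, adjusted p = 0.00920).

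The other 3 binding proteins overlapped between the groups. For IGFBP4, a binding protein that PAPPA cuts, the normalized counts were 29262, 40929 and 23641 in UE7T-9 Cont, against 28382, 58666 and 56178 for UE7T-9 SHC4. UE7T-9 SHC4 replicates 2 and 3 were above every control, whereas replicate 1 lay among the controls. Limma gave a log2 fold change of 0.57 (95% interval -0.17 to 1.32, adjusted p = 0.463). Without UE7T-9 SHC4 replicate 1, the DESeq2 adjusted p was 0.0134 and the limma log2 fold change 0.91 (adjusted p = 0.206).

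IGFBP2, which carries an integrin-binding sequence and is adjacent to IGFBP5 in the genome, was 1493, 804 and 478 in UE7T-9 Cont, against 1012, 973 and 1092 for UE7T-9 SHC4. The 3 UE7T-9 SHC4 values lay inside the range of the controls, which spread more widely. The limma log2 fold change was 0.30 (95% interval -0.45 to 1.05, adjusted p = 0.723). Its sign turned without UE7T-9 Cont replicate 3 (-0.0971), and DESeq2 called the gene higher without UE7T-9 Cont replicate 1 (DESeq2 adjusted p = 0.0343).

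IGFBP7 binds IGF only weakly and is a secreted protein of vessel walls and stroma. It was 18839, 27743 and 20757 in UE7T-9 Cont, against 17561, 27008 and 28174 for UE7T-9 SHC4. Both groups covered nearly the same range, and the 95% interval of the limma log2 fold change (0.10) ran from -0.45 to 0.65 (adjusted p = 0.888). POLR2B, on the opposite strand, shares 270 exonic bases with IGFBP7 in GENCODE 29 and had a mean of 2359 over the 6 libraries. How reads from the shared bases were counted depends on the strand setting, which is not given.

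For PAPPA, the protease of IGFBP4, the normalized counts were 2965, 4262 and 3091 in UE7T-9 Cont, against 1997, 3667 and 3275 for UE7T-9 SHC4. Only UE7T-9 SHC4 replicate 1 lay below the controls. Limma gave a log2 fold change of -0.23 (95% interval -0.76 to 0.30, adjusted p = 0.693), and it was 0.0303 without that library. The antisense gene PAPPA-AS1 shares 2450 of the 11573 merged exonic bases of PAPPA, and PAPPA-AS1 was not analysed here.

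PAPPA2, the other pappalysin, was the member with the fewest reads, at 21 to 172 per library. Its normalized count was 91.6, 82.4 and 169 in UE7T-9 Cont, against 92.3, 23.3 and 24.5 for UE7T-9 SHC4. UE7T-9 SHC4 replicates 2 and 3 were thus below every control, and replicate 1 was not. The limma log2 fold change was -1.50 (standard error 0.52, 95% interval -2.67 to -0.33, adjusted p = 0.249), with a DESeq2 adjusted p of 0.171. Without UE7T-9 SHC4 replicate 1, DESeq2 called PAPPA2 lower (log2 fold change -2.27, DESeq2 adjusted p = 0.000134), and limma did not (adjusted p = 0.0755). The summed markers of blood, endothelial and epithelial cells were also lower in every UE7T-9 SHC4 library (165 to 182) than in any control (223 to 300.0). Within that sum the keratin genes KRT18 (means 63.9 and 9.31 in UE7T-9 Cont and UE7T-9 SHC4) and KRT8 (28.5 and 10.3) had lower means in UE7T-9 SHC4. The endothelial marker PECAM1 had the higher mean there (10.8 and 28.2, with 36.6 and 38.4 in UE7T-9 SHC4 replicates 2 and 3), and CD34 had 46.8 and 46.0. Their part in the value of PAPPA2 was not tested.

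STC2 is a stanniocalcin that binds PAPPA covalently. Its normalized count was 9066, 12713 and 10247 in UE7T-9 Cont, against 15844, 18731 and 16263 for UE7T-9 SHC4. The groups were apart, and here the highest control was replicate 2. The means were 10676 ± 1861 and 16946 ± 1559.9 (SD, n = 3 each), a ratio of 1.59. Limma gave a log2 fold change of 0.68 (standard error 0.18, 95% interval 0.28 to 1.08, adjusted p = 0.180), with a DESeq2 adjusted p of 0.00958. DESeq2 called STC2 in 3 of 6 fits that each left out a library, and limma in 0 of 6 (log2 fold change 0.57 to 0.81).

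STC1, the other stanniocalcin, was 1509, 2224 and 726 in UE7T-9 Cont, against 1142, 516 and 1408 for UE7T-9 SHC4. The libraries of each group spread widely, and the groups overlapped. The limma log2 fold change was -0.52 (95% interval -1.51 to 0.47, adjusted p = 0.631). Thus the 2 stanniocalcins had log2 fold changes of opposite sign, and whether these differ from each other was not tested.

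For each of IGFBP3, IGFBP5, IGFBP6 and STC2, the exact permutation test over the 6 libraries gave a two-sided p of 0.1, which is the smallest that 3 libraries against 3 allow. It gave 0.3 to 0.9 for the other 6 members.

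**Figure D2:**
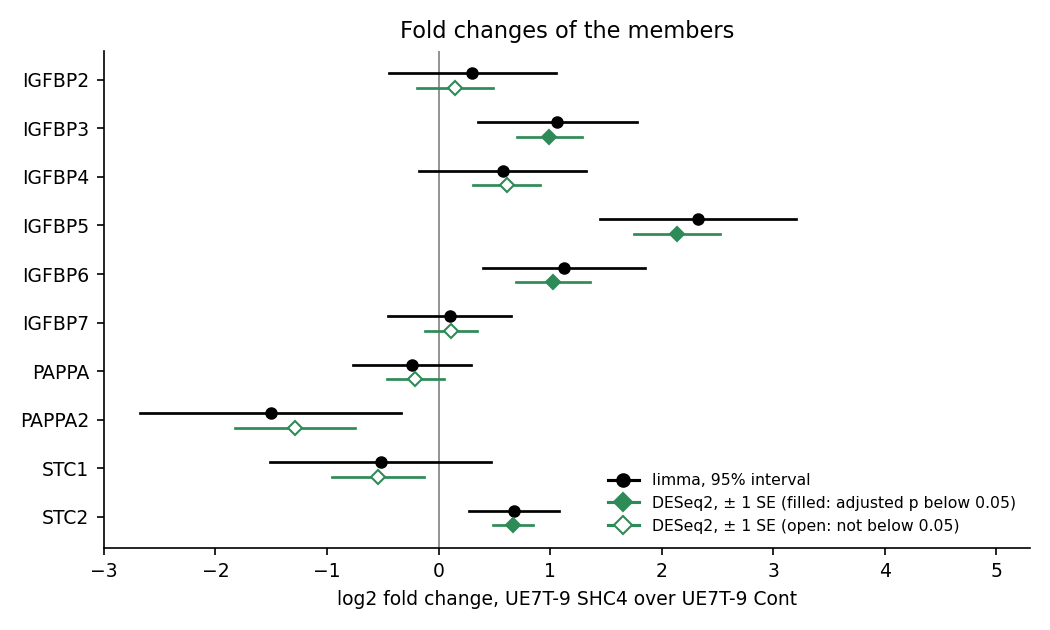
Log2 fold change of UE7T-9 SHC4 over UE7T-9 Cont for the 10 members, from limma (black circles, 95% interval) and from DESeq2 (green diamonds, ± 1 standard error, filled where the DESeq2 adjusted p is below 0.05). IGFBP5 has the largest value in both fits (2.33 and 2.14), and IGFBP3, IGFBP5, IGFBP6 and STC2 are filled.

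**Figure D3:**
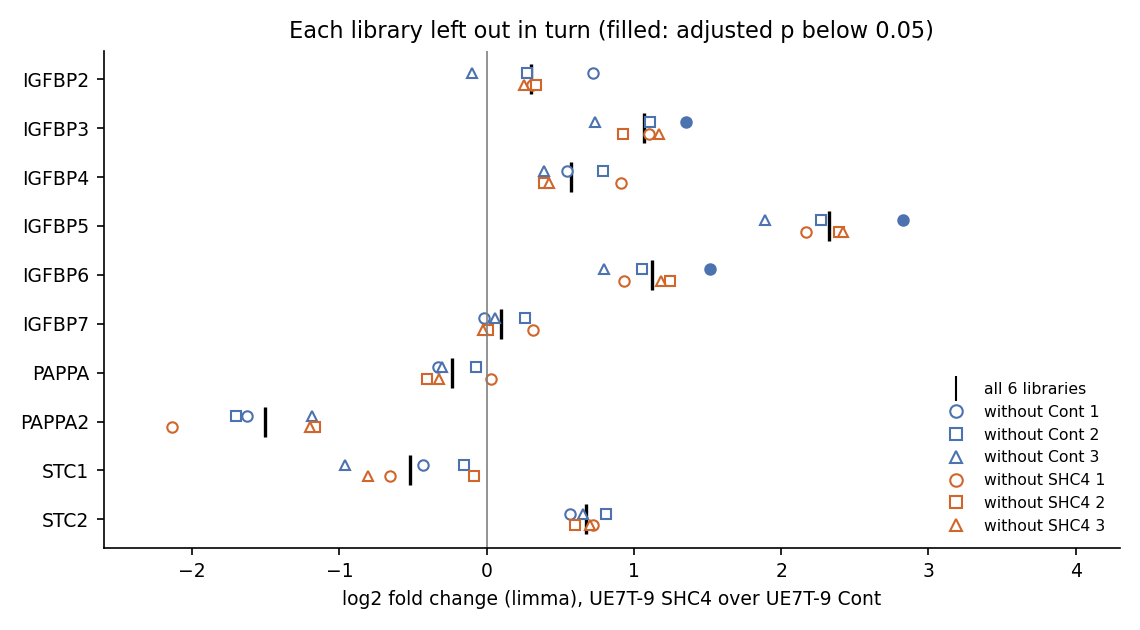
Limma log2 fold change of each member with all 6 libraries (black bar) and after the removal of single libraries (blue, a UE7T-9 Cont library; orange, a UE7T-9 SHC4 library; the marker shape gives the replicate number; filled where the adjusted p is below 0.05). The filled points are those of IGFBP3, IGFBP5 and IGFBP6 without UE7T-9 Cont replicate 1.

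The plot with each library left out shows the role of UE7T-9 Cont replicate 1. It was the highest control for IGFBP2, IGFBP3, IGFBP5 and IGFBP6, and the lowest for IGFBP7, PAPPA and STC2. Without it, limma called 3 members, all higher, among 1191 genes called in all, against 15 of 23040 genes with all 6 libraries. Leaving out the control most like the UE7T-9 SHC4 libraries tends to widen the difference between the groups. Without any other single library, limma called 0 members. For the members not called without UE7T-9 Cont replicate 1, that fit gave log2 fold changes of 0.72 for IGFBP2 (adjusted p = 0.0799), 0.55 for IGFBP4 (0.447) and -0.0161 for IGFBP7 (0.983). It gave -0.33 for PAPPA (0.502), -1.62 for PAPPA2 (0.150), -0.44 for STC1 (0.668) and 0.57 for STC2 (0.104). UE7T-9 SHC4 replicate 1 was the lowest of its group for IGFBP4, IGFBP7, PAPPA and STC2 and the highest for IGFBP5, IGFBP6 and PAPPA2. The stromal markers varied in the same libraries. COL1A1 was 315042 in UE7T-9 Cont replicate 1 against 87857 and 67813 in replicates 2 and 3, and it was 276719 in UE7T-9 SHC4 replicate 1 against 130035 and 122241. THY1 was 7742 in UE7T-9 Cont replicate 1 against 2940 and 2286, and it was 7512 to 9570 in UE7T-9 SHC4. Among the controls, ENG, PDGFRB, COL1A2, COL3A1, VIM and DCN were also highest in replicate 1. NT5E (13089 against 22364 and 20649) and LUM (7698 against 8815 and 10419) were lowest there. Among the UE7T-9 SHC4 libraries, ENG, PDGFRB, COL1A2, COL3A1 and VIM were highest in replicate 1. LUM (6406 against 11432 and 12375) and DCN (23446 against 40877 and 39304) were lowest there. DESeq2 called PDGFRB higher (2429 to 5698, DESeq2 adjusted p = 0.0171) and, of the markers of other cells, KRT18 lower (63.9 to 9.31, DESeq2 adjusted p = 0.00804), whereas limma called none of either list (3 and 2 genes below 0.05 before adjustment). Of all genes, DESeq2 called 2.06% higher and 2.08% lower, and 14.4% were below 0.05 in limma before adjustment. Without UE7T-9 Cont replicate 1 the limma adjusted p was 0.00135 for PDGFRB and 0.0595 for KRT18. Their part in the results for the members was not tested.

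For IGFBP5 and IGFBP3, the 250 bases before the start that RefSeq (GRCh38.p14) gives are shown so that the 2 starts can be compared. Among the members whose groups were apart, IGFBP5 had the largest difference and IGFBP3 the highest counts. RefSeq held promoter entries for 8 of the 10 members, and IGFBP7 and STC1 are named only. The windows of IGFBP6 and STC2 are not shown, since GENCODE 29 starts these genes further upstream and annotates 231 and 250 of their 250 bases as untranslated region. The IGFBP5 window lies wholly before the gene in GENCODE 29, whereas the IGFBP3 window lies inside the annotated gene, which has a further exon upstream. Each line is on the strand of the gene, 5′ to 3′. Capitals mark matches on either strand to GGGCGG (GC box, in 42.6% of all 35116 promoter entries of this length), CCAAT (32.0%), TATAAA (10.7%), TATATA (3.73%), TTTAAA (11.3%), ACGTG (core of the hypoxia element, 18.5%) and TTCNNNGAA (STAT element, 6.57%). TATATA and TTTAAA were added after the sequences were read. No matches overlap.
IGFBP3, chr7:45921273-45921522, minus strand: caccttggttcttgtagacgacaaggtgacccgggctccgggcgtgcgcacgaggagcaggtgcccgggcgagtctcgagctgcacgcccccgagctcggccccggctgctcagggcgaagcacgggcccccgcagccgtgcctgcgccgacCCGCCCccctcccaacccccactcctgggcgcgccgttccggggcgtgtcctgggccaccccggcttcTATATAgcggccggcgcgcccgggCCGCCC
IGFBP5, chr2:216695550-216695799, minus strand: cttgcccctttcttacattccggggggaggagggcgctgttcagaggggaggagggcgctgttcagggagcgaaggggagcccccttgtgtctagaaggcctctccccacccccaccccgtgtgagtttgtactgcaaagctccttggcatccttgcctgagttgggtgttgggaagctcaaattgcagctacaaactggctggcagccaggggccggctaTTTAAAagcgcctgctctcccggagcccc

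The AT-rich matches of IGFBP3 and IGFBP5 began at positions -30 and -29 from the RefSeq start. IGFBP3 also had GC box matches at -98 and -6, and IGFBP5 had none. The stretches had 76% and 61.2% G and C. The letters of the other 4 motifs did not occur in either window. A match is a description of the letters only.

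IGFBP5 and IGFBP2 are neighbours on chromosome 2 in GENCODE 29 (GRCh38), which was matched by Ensembl identifier. IGFBP2 (216632828 to 216664436) is on the plus strand and IGFBP5 (216672105 to 216695525) on the minus strand, end to end with 7668 bases between them. The ratio of IGFBP5 to IGFBP2 normalized counts stood at 0.693, 0.593 and 0.588 for UE7T-9 Cont, against 3.21, 2.44 and 2.09 for UE7T-9 SHC4. The control ratios, UE7T-9 Cont replicate 1 included, lay close together, unlike the counts of either gene. IGFBP3 on chromosome 7 (45912245 to 45921874) has the same arrangement with IGFBP1, 18576 bases away. IGFBP1 was 638, 1702 and 556 in UE7T-9 Cont, against 798, 799 and 1219 for UE7T-9 SHC4, with overlapping groups (log2 fold change 0.12, adjusted p = 0.913).

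To compare levels between genes, normalized counts were divided by the merged exon length in kb. This length joins the exons of all annotated transcripts of a gene. It was 4767 and 4571 bases for IGFBP2 and IGFBP3, against 2200 and 1930 for IGFBP4 and IGFBP7. Which transcripts the cells expressed was not analysed, so the order of genes and their shares depend on these lengths. In UE7T-9 Cont, the order of the mean level per kb was IGFBP4 (14217), IGFBP7 (11630.2), IGFBP3 (4983), IGFBP6 (2050.0), STC2 (1742), STC1 (358), PAPPA (297), IGFBP2 (194), IGFBP5 (92.8) and PAPPA2 (10.5). The ranges of neighbours in this order overlapped except between IGFBP7 and IGFBP3, STC2 and STC1, and IGFBP5 and PAPPA2. In UE7T-9 SHC4, the first 5 places held the same genes, and IGFBP5 (410 per kb) came next, above PAPPA (257), STC1 (246), IGFBP2 (215) and PAPPA2 (4.27). Its range, 355 to 505, did not overlap that of PAPPA there, whereas in UE7T-9 Cont it had been below PAPPA in all 3 libraries. In UE7T-9 SHC4 the ranges of IGFBP4 and IGFBP7, of IGFBP7 and IGFBP3, of PAPPA and STC1, and of STC1 and IGFBP2 overlapped.

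The summed level of the 6 binding proteins per kb was 33785, 39907 and 25808 in UE7T-9 Cont, against 37328, 56652 and 52986 for UE7T-9 SHC4. The groups overlapped, since replicate 2 of the controls was above replicate 1 of UE7T-9 SHC4. With these lengths, IGFBP3, IGFBP4 and IGFBP7 made up 83.8% to 95.1% of this sum in every library. The share of IGFBP7 was 28.9%, 36.0% and 41.7% in UE7T-9 Cont, against 24.4%, 24.7% and 27.6% for UE7T-9 SHC4, so that it was lower in every UE7T-9 SHC4 library while its own count overlapped. The share of IGFBP5 was 0.169% to 0.476% in UE7T-9 Cont, against 0.651% to 1.35% for UE7T-9 SHC4. The shares of the other 4 binding proteins overlapped between the groups. The composition concerns RNA and not secreted protein, and in bulk RNA a gene expressed by more cells and a gene expressed more per cell cannot be told apart.

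**Figure D4:**
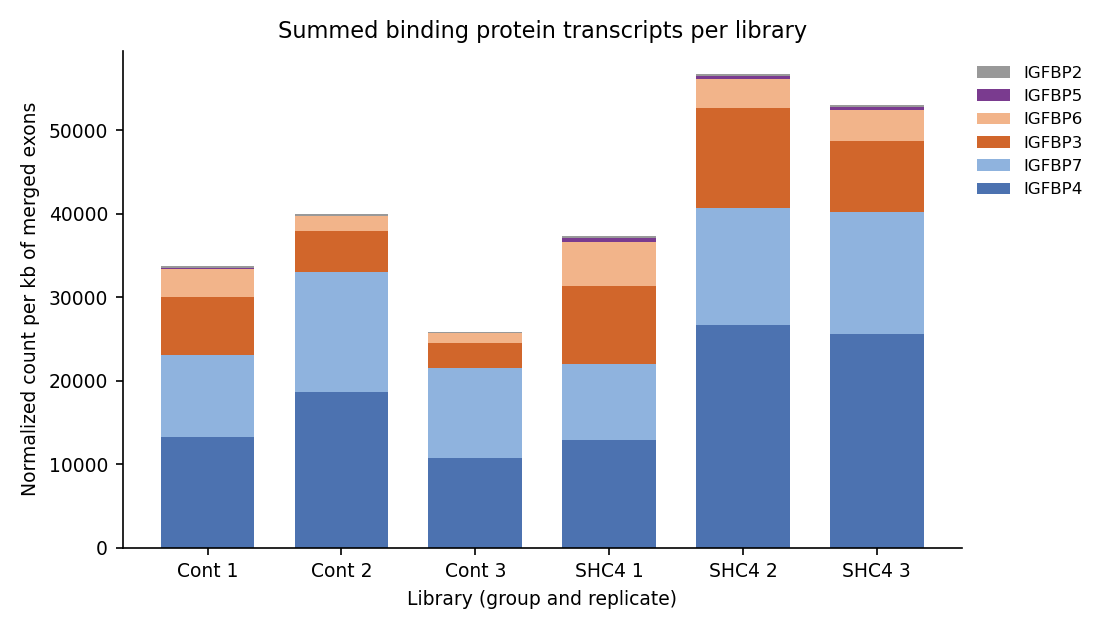
Normalized count per kb of merged exons of the 6 binding proteins, stacked for each library (bars start at 0). IGFBP4, IGFBP7 and IGFBP3 make up 83.8% to 95.1% of every bar, and the bar of UE7T-9 SHC4 replicate 1 (37328) is below that of UE7T-9 Cont replicate 2 (39907).

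The balance of inhibitor and protease was described by ratios per kb within each library. The summed stanniocalcins over PAPPA were 7.19, 7.09 and 6.92 in UE7T-9 Cont. They were 16.6, 10.04 and 10.6 in UE7T-9 SHC4. The 3 controls lay within a narrow range and every UE7T-9 SHC4 library was above it. Most of the sum was STC2, which was 3.87 to 24.6 times STC1 per kb. The ratio of STC2 to PAPPA was 5.63 to 6.26 in UE7T-9 Cont, against 9.38 to 15.0 for UE7T-9 SHC4. The ratio of IGFBP4, the substrate, to PAPPA was 51.9, 50.5 and 40.2 in UE7T-9 Cont, against 74.8, 84.2 and 90.2 for UE7T-9 SHC4. These groups were apart, although IGFBP4 and PAPPA taken singly overlapped. The ratio of PAPPA to PAPPA2 overlapped between the groups (17.3 to 48.8 in UE7T-9 Cont, against 20.4 to 149 for UE7T-9 SHC4), and so did that of STC2 to STC1. Except for that of the summed stanniocalcins to PAPPA, the ratios, that of IGFBP5 to IGFBP2 included, were chosen after the values were seen. None was tested.

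**Figure D5:**
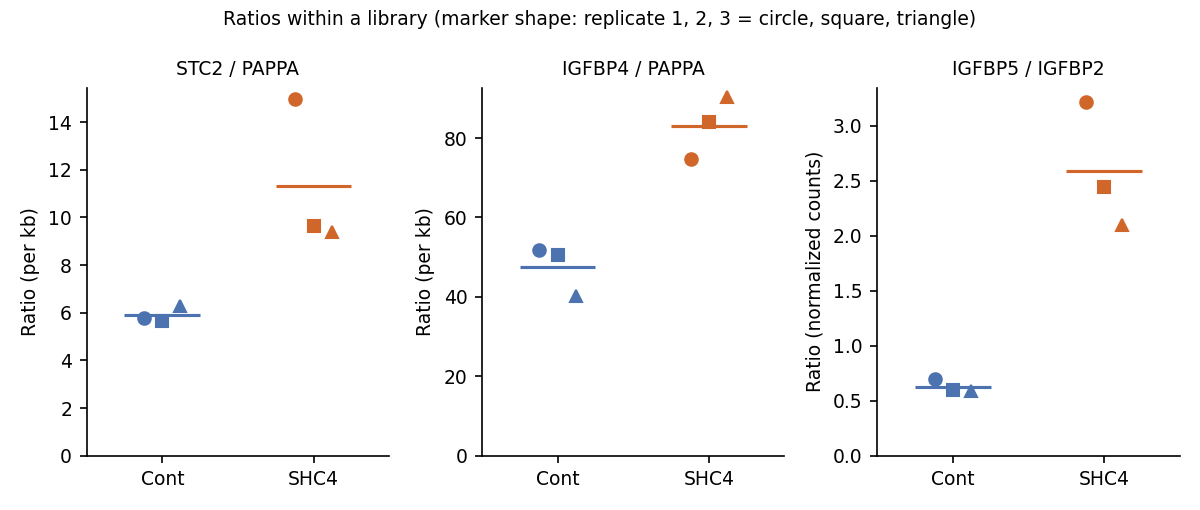
Ratios within each library of STC2 to PAPPA and of IGFBP4 to PAPPA (normalized count per kb of merged exons) and of IGFBP5 to IGFBP2 (normalized counts), with UE7T-9 Cont in blue, UE7T-9 SHC4 in orange and a bar at each mean (n = 3; axes start at 0). All 3 UE7T-9 SHC4 libraries lie above all 3 UE7T-9 Cont libraries in each panel, as with 9.38 to 15.0 against 5.63 to 6.26 for STC2 to PAPPA. These ratios were chosen after the values were seen, and other ratios overlapped between the groups.

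The genes around the members in the IGF pathway were read from fixed lists. Of 7 ligand, receptor and substrate genes, IGF2 was not analysed here and IGF1 had at most 1 read in a library. The other 5 were tested, with 4 higher, 1 lower and a median log2 fold change of 0.47. Limma and edgeR called 0 of them, 3 being below 0.05 in limma before adjustment, as 14.4% of all genes were. DESeq2 called IGF1R higher and IGF2R lower, beside 2.06% of all genes called higher and 2.08% called lower. IGF1R, the signalling receptor, was 1214 to 1577 in UE7T-9 Cont, against 1876 to 2181 for UE7T-9 SHC4 (DESeq2 adjusted p = 0.0426, limma adjusted p = 0.180). IGF2R, which takes up IGF2 for breakdown, was 11947 to 14163 in UE7T-9 Cont, against 8598 to 9442 for UE7T-9 SHC4 (DESeq2 adjusted p = 0.00957, limma adjusted p = 0.195). Both were apart between the groups, as 9.13% of all genes were with UE7T-9 SHC4 higher and 10.2% with it lower. Without UE7T-9 Cont replicate 1, the limma adjusted p was 0.0407 for IGF1R and 0.0640 for IGF2R. Of the other binding proteins and complex partners, PRG2 was not analysed here, IGFBPL1 and IGFALS had group means of at most 5.19, and limma called 0 of the 3 tested, 1 of which (IGFBPL1) was below 0.05 before adjustment. DESeq2 called 0 of them as well, with no adjusted p for IGFBPL1 and IGFALS.

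Of 17 other proteases known to cut binding proteins, MMP9 and F2 were not analysed here and 14 were tested, with 7 higher, 7 lower and a median log2 fold change of 0.0216. Limma called 0 of them, 4 being below 0.05 before adjustment, as 14.4% of all genes were. DESeq2 called HTRA1 higher and MMP3 lower, beside 2.06% of all genes called higher and 2.08% called lower. HTRA1, a secreted serine protease that cuts IGFBP5, was 14334, 10631 and 8007 in UE7T-9 Cont, against 13773, 26610 and 23379 for UE7T-9 SHC4 (DESeq2 adjusted p = 0.0285, limma adjusted p = 0.212). The groups overlapped through replicate 1 of each, and leaving out that control gave 1.15 on the log2 scale (limma adjusted p = 0.0564). MMP3, a matrix metalloproteinase, was 2.92, 118 and 66.9 in UE7T-9 Cont, against 8.79, 3.33 and 9.32 for UE7T-9 SHC4 (DESeq2 adjusted p = 0.0214, limma adjusted p = 0.433). These groups overlapped through UE7T-9 Cont replicate 1, without which limma called MMP3 lower (log2 fold change -3.56, adjusted p = 0.0102). MMP2 had the highest mean normalized count of this list, at 43121 ± 7812 in UE7T-9 Cont, against 93626 ± 52225 for UE7T-9 SHC4 (SD, n = 3 each, limma adjusted p = 0.362). Its groups overlapped. Of the 14 tested, 3 (ADAM9, PLAU and MMP1) were apart with UE7T-9 SHC4 lower and 0 with it higher, against 10.2% and 9.13% of all genes.

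Relatives, most of them secreted, share the amino-terminal domain of the binding proteins. Of 13 listed, 12 were tested, with 9 higher, 3 lower and a median log2 fold change of 0.74. Before adjustment 8 of them were below 0.05 in limma, as 14.4% of all genes were. Of these, ESM1 (log2 fold change -1.50) and CCN2 (-0.49) were lower and the others higher. DESeq2 called KAZALD1, CCN3 and HTRA1 higher, beside 2.06% of all genes. It gave no adjusted p for CCN4, CCN6, HTRA4 and IGFBPL1. CCN4 was 2029, 313 and 163 in UE7T-9 Cont, against 1984, 2046 and 1520 for UE7T-9 SHC4. Without UE7T-9 Cont replicate 1, limma called CCN3, CCN4, CCN5, HTRA3 and KAZALD1 higher, among 1191 genes called in all. The log2 fold changes were 3.01 for CCN4 (adjusted p = 0.00135) and 2.38 for CCN5 (0.00455). CCN1, CCN2 and ESM1 were lower there and not called. HTRA1, HTRA3, HTRA4 and IGFBPL1 also belong to the lists above and are counted in both. With all 6 libraries, KAZALD1 was the only gene of the pathway lists that limma called. This secreted protein with an IGFBP-type domain was 438, 444 and 436 in UE7T-9 Cont, against 788, 914 and 845 for UE7T-9 SHC4. It rose by a log2 fold change of 0.95 (standard error 0.12, limma adjusted p = 0.0373, DESeq2 adjusted p = 3.28e-07, edgeR adjusted p = 0.0431). UE7T-9 Cont replicate 1 did not stand apart for this gene, and without it limma gave 0.95 (adjusted p = 0.00741). The limma call was lost with library size scaling (adjusted p = 0.0715) and without UE7T-9 Cont replicate 2 (0.245), UE7T-9 Cont replicate 3 (0.147), UE7T-9 SHC4 replicate 2 (0.404) or UE7T-9 SHC4 replicate 3 (0.423), with log2 fold changes of 0.84 to 0.96, and DESeq2 called the gene in 6 of 6 fits that left out a library. CCN3, a matricellular protein, was 1124, 1402 and 1414 in UE7T-9 Cont, against 2267, 3955 and 3955 for UE7T-9 SHC4 (DESeq2 adjusted p = 7.54e-06, limma adjusted p = 0.0812, and 0.0231 in limma without UE7T-9 Cont replicate 1). CCN1 had the highest mean of this list, at 19041 in UE7T-9 Cont, against 14835 for UE7T-9 SHC4 (limma adjusted p = 0.420).

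Among 12677 other genes averaging 50 or more, those whose log2 values followed IGFBP5 most closely over the 6 libraries were PGGHG (Pearson's r 0.998), COPS7A (0.994) and PLPP3 (0.994). As the 6 libraries form the 2 groups, the difference between groups enters these values. PGGHG was 606, 438 and 360.0 in UE7T-9 Cont, against 956, 842 and 883 for UE7T-9 SHC4, in the same order of libraries within the controls as IGFBP5 (limma adjusted p = 0.111).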

How the data were processed

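RNA libraries (NEBNext Ultra) came from 3 samples per group. For every gene, the authors deposited a signal, namely its count divided by a DESeq2 size factor. The submitters' processing notes name HISAT2 2.0.5, featureCounts 1.5.0-p3 and DESeq2. The genome build, annotation and strand setting are not given in the sources used here. In each library, dividing by the lowest value above 0 gave whole numbers for 100% of genes (tolerance 0.01 reads), and these were taken as reads. On them DESeq2 called 669 genes and edgeR 11. All 28181 identifiers were in GENCODE 29 (GRCh38), which gave positions and merged exon lengths. Symbols came from a separate reference of gene names, and from GENCODE 29 where that held none.

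Groups and replicate numbers came from the sample titles. limma 3.58.1 (eBayes with trend, R 4.3.3) was fitted on log2(normalized count + 1) for genes with a mean of at least 1, leaving out 5141 genes. Fold changes on this scale understate those of low genes. DESeq2 1.42.0 and edgeR 4.0.16 were run on the recovered reads as alternatives, besides other scalings, filters, pseudocounts, a replicate block and leaving out each library. The DESeq2 fits without a library or with the block, and the values of list genes without UE7T-9 Cont replicate 1, were added after the data were seen. The fit was tested on simulated counts of all 28181 genes for this comparison, where limma recovered 98% of 200 genes changed by 2 on the log2 scale. These 200 genes had a UE7T-9 Cont mean of at least 50, and the noise was drawn separately for each gene. The share therefore does not give the power for smaller changes, or where a whole library stands apart. Members and lists were chosen with earlier results of these data known. All 10 members, SHC4, called list genes, the most abundant gene of each list and the 3 genes most like IGFBP5 were named by rule. The marker lists and the ratio of the summed stanniocalcins to PAPPA were set beforehand, with those earlier results known. Others were chosen after their values were seen, namely the other ratios, the genes given as neighbours, and the marker and list genes given singly outside that rule. With 3 libraries a group, the spread between libraries limits the precision.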

Additional observations from a re-analysis of the deposited data

How the results depend on the processing

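The number of members called was 0 with limma, and also with edgeR, library size or TMM scaling, a mean of at least 10, a pseudocount of 0.1 or 10, and an added log2 fold change threshold of 1. It was 4 with DESeq2, 1 without a filter on low values and 1 with the replicate block (IGFBP5 in both, adjusted p = 0.0455 and 0.0202), and 4 with DESeq2 and the replicate block. Leaving out each library gave 0 to 3 with limma and 1 to 5 with DESeq2, the 5 without UE7T-9 Cont replicate 1. Over all genes, limma called 15, against 669 with DESeq2, 771 with DESeq2 and the replicate block, 28 with library size scaling, 25 with TMM scaling, 43 without a filter, 47 with the replicate block, 2 to 1191 with limma and 121 to 2244 with DESeq2 when a library was left out (217, 250 and 2244 without UE7T-9 Cont replicates 2, 3 and 1, and 851, 121 and 232 without UE7T-9 SHC4 replicates 1, 2 and 3). SHC4 was called in every fit (log2 fold change 9.88 to 10.61). IGFBP3, IGFBP4, IGFBP5, IGFBP6, PAPPA2, STC1 and STC2 kept their direction in every fit.

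The direction turned for IGFBP7 with library size scaling (-0.00290), without UE7T-9 Cont replicate 1 (-0.0161) and without UE7T-9 SHC4 replicate 3 (-0.0236, and -0.00757 in DESeq2), for IGFBP2 without UE7T-9 Cont replicate 3 (-0.0971, and -0.168 in DESeq2), and for PAPPA without UE7T-9 SHC4 replicate 1 (0.0303, and 0.0126 in DESeq2). The cause was not tested. With limma, leaving out a library gave -0.0971 to 0.72 for IGFBP2, -0.0236 to 0.32 for IGFBP7 and -0.41 to 0.0303 for PAPPA. To judge the pairing, the departures of same-numbered libraries from the mean of their group were correlated across genes. This gave 0.148, 0.0130 and -0.00696 for numbers 1, 2 and 3 over all genes tested, which is not above 0.1 in every pair. Restricted to 12678 genes averaging 50 or more it gave 0.409, 0.146 and 0.149, above 0.1 in every pair, while UE7T-9 Cont replicate 2 was closer to UE7T-9 SHC4 replicate 3 (0.517) than to its own number. The numbers were not taken to pair the libraries, and the block changed the limma call of IGFBP5 and of no other member. Library size scaling moved the median of all genes to -0.103. With 3 libraries a group, no exact test could go below 0.1.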
